A study of Homo sapiens with 4 samples.

Results

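A set of 49 genes that copy DNA or act in S phase was followed in ribosome footprints of HEK293, a long-established line of human embryonic kidney cells. The genes were picked by symbol from a list of replication genes, by a rule that uses no measured value, although the list was drawn up with earlier results of these data known. All 49 were found among the 16292 Ensembl transcripts listed in at least 1 library, with 1 transcript each, and all 49 were above 0 in every library. Footprints are the mRNA pieces covered by ribosomes, so their number depends on how much mRNA a gene has and on how it is translated. The cells fell into 4 groups with 1 library each, namely RPL4 mutant with erythromycin, RPL4 mutant without it, wild type with erythromycin and wild type without it. RPL4 is a large-subunit protein that lines the peptide exit tunnel of the ribosome, and erythromycin is a macrolide antibiotic that binds that tunnel in bacterial ribosomes. All cells belonged to stable HEK293 lines made with GFP, wild type L4 or a Δloop mutant and infected with lentivirus carrying an shRNA to RPL4 or a scrambled control, but the labels do not tie these to single libraries. Drug dose, drug time and whether cycloheximide or lactimidomycin was used for each library are also not given in the labels.

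DNA replication begins with licensing, in which the origin recognition complex, CDC6 and CDT1 load rings of MCM proteins onto DNA, while geminin (GMNN) holds CDT1 in check. CDC45 and the GINS proteins then turn the rings into active helicases, RPA coats the single strands, and polymerase alpha with primase starts chains that polymerases delta and epsilon extend on the PCNA clamp. Many of these genes are transcribed at the start of S phase under E2F factors, and HEK293 cells carry adenoviral early genes that free these factors from the retinoblastoma protein.

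The letters of an E2F site occurred in more promoters of these genes than of other genes, and some of the sites are shown because E2F factors are known regulators of S phase genes. Promoters were read from RefSeq (GRCh38.p14), from 250 bases before to 50 bases after the transcript start, and 54 promoters of 42 of the genes were in that table. The site was searched as TTTCCCGC, TTTCGCGC, TTTGCCGC or TTTGGCGC on either strand, with overlaps allowed. It occurred in 21 of the 54 promoters (38.9%), against 5.22% of the 11128 promoters of genes kept in the analysis and 3.31% of all 35116 promoters. The letters CCAAT, the core of the NF-Y site, on either strand, occurred in 59.3% of the genes' promoters, against 35.5% of promoters of kept genes and 34.6% of all. Windows of 28 bases around 1 match follow, read 5′ to 3′ on the strand of the gene, with the matching letters or their reverse complement in capitals.
CDT1, chr16:88803744-88803771, plus strand: cagggcgcccGCGGGAAAtttggcggga
GMNN, chr6:24775323-24775350, plus strand: ctgggtcggtTTTGGCGCgctctcactt
MCM3, chr6:52284899-52284926, minus strand: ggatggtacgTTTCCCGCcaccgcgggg
MCM6, chr2:135876512-135876539, minus strand: gtcaggtttgGCGCGAAAtctccagctc
MCM7, chr7:100101567-100101594, minus strand: agctcggaccGCGGGAAAcccggcgcct
PCNA, chr20:5126664-5126691, minus strand: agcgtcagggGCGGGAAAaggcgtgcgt
POLE, chr12:132687343-132687370, minus strand: gggtgggagcGCGCCAAAtttctcccct
TYMS, chr18:657604-657631, plus strand: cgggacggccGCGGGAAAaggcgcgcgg

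The mutant libraries held 993461 reads with and 604506 without erythromycin, and the wild type libraries 2555613 and 2965243. The median of the 49 genes was 120, 78, 317 and 407 reads in the same order, against 40, 23, 91 and 108 for all 9612 transcripts kept at a mean of at least 5 RPKM, a filter that all 49 passed. RPL4 itself was at 1439 and 1707 RPKM in mutant cells with and without erythromycin, against 2586 and 2515 RPKM in wild type cells, and a transgene copy would be counted with it. Of 6 intermediate filament genes that HEK293 cells are known to express, VIM, KRT8, KRT18, INA and NEFL were between 43.6 and 1100 RPKM in all 4 libraries, and NEFM was at most 0.732. Of markers of other cell types, the leukocyte gene PTPRC was at 0 in every library, ALB, HBB and MYH7 were at most 3.73 RPKM, and the collagen gene COL1A1 was between 3.89 and 6.68.

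Footprint levels spanned a wide range within the set. Medians over the 49 genes were 71.5 RPKM in the mutant with erythromycin and 82.1 without it, and 83.9 RPKM in wild type with it and 81.7 without. TYMS, which makes thymidylate, was highest in every library, at 642 and 597 RPKM in the mutant with and without erythromycin and 732 and 771 RPKM in wild type. POLE2, an accessory subunit of polymerase epsilon, was lowest in every library, at 13.3, 13.6, 10.4 and 9.58 RPKM in that order. The same 2 genes thus marked the ends of the range in all 4 libraries.

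**Figure D1:**
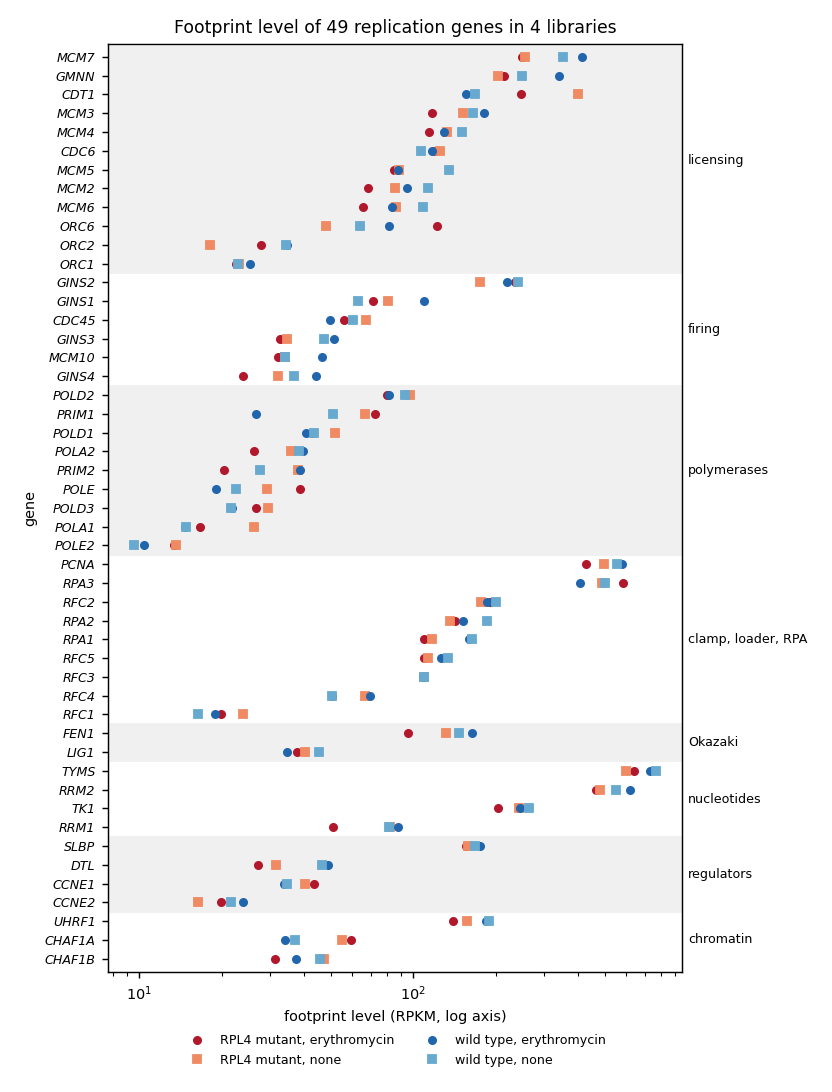
Footprint level (RPKM, log axis) of the 49 genes in the 4 libraries, grouped by role and sorted by mean level within a role; points that coincide hide each other. TYMS, RRM2, PCNA and RPA3 lie at the top of the range and POLE2 at the bottom, and CDT1 shows the mutant points apart from the wild type ones, with 248 and 401 RPKM in the mutant with and without erythromycin against 155 and 167 RPKM in wild type.

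Subunits that work together in 1 complex were not at 1 common level. In the MCM2-7 helicase, MCM7 was the highest subunit in all 4 libraries, and the highest was 3.82 and 2.98 times the lowest in the mutant with and without erythromycin and 4.92 and 3.26 times in wild type. In GINS, GINS2 exceeded GINS4 by 9.79 and 5.47 times in the mutant and by 4.99 and 6.57 times in wild type. In replication factor C, RFC2 was above RFC1, the large subunit, by 9.62 and 7.38 times in the mutant and by 9.89 and 12.2 times in wild type. RRM2, the small subunit of ribonucleotide reductase, was above the large subunit RRM1 by 9.19 and 5.88 times in the mutant and by 6.98 and 6.74 times in wild type. The leading subunit of these 4 complexes was therefore the same in every library. These are levels per coding length, and 80% of the coding bases of RRM2 are shared with another protein-coding annotation on the same strand (AC007240.1), so its reads could be split or shared.

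**Figure D2:**
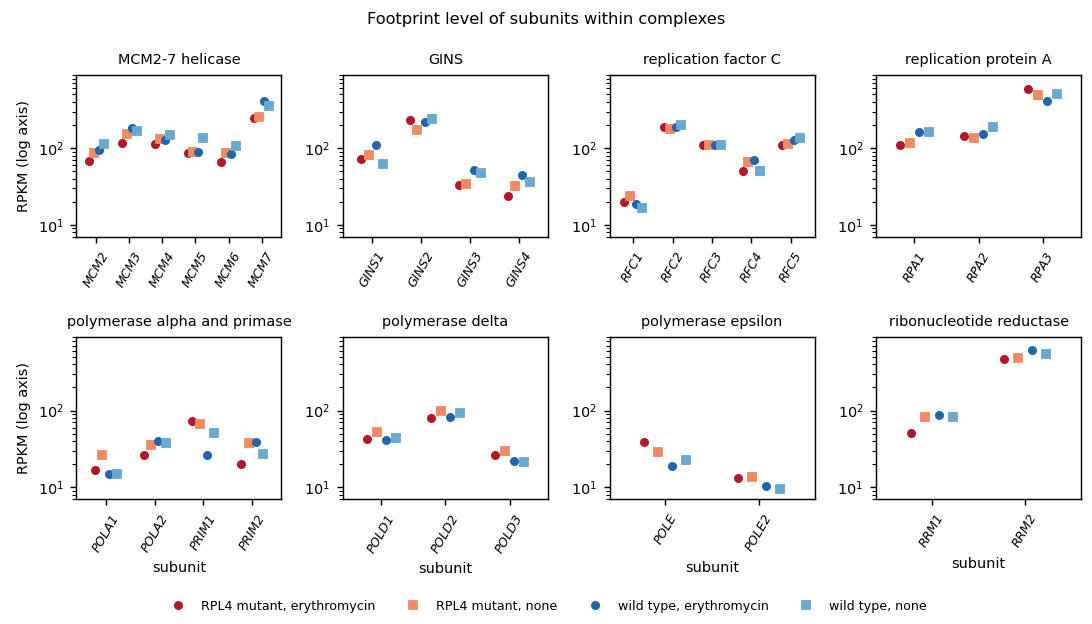
Footprint level (RPKM, log axis) of each subunit of 8 replication complexes in the 4 libraries. MCM7, GINS2, RFC2, RPA3, POLD2, POLE and RRM2 are the highest subunits of their complexes in every library, while the highest subunit of polymerase alpha and primase is PRIM1 in 3 libraries and POLA2 in wild type with erythromycin.

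Setting the mutant against wild type asks which of these genes differ in footprints when RPL4 is altered. Differences are log2 ratios of RPKM plus 1, centred on the median of all kept genes, with the 95% exact counting interval of the reads in brackets. Such an interval covers counting error only and compares 2 libraries, not conditions. CDT1 and CHAF1A, which acts in histone deposition, and POLE, the catalytic subunit of polymerase epsilon, were higher in the mutant beyond counting error in both treatments, and RPA1, MCM2, MCM6, MCM7, TYMS, RRM2, DTL and UHRF1 were lower in both. Each group being a single library, no difference between 2 libraries has a replicate check. A different share of cells in S phase cannot be told apart from different footprints per cell. For some genes below, both mutant libraries are said to lie above or below both wild type ones, or not to overlap with them. With so few libraries such a separation can arise by chance. Its share among all genes was not computed, so it is a description and not a check.

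With erythromycin, 6 of the 49 genes were higher in the mutant beyond counting error (16.1% of all genes) and 22 were lower (16.9% of all genes). Without erythromycin, 5 were higher (9.5% of all genes) and 12 were lower (9.29%). In both treatments 3 were higher (4.06%), 8 were lower (4.87%) and 0 had intervals off 0 in opposite directions (1.17%). These genes have more reads than most, which narrows their intervals. Of the 49, 25 lay between the quartiles of the set in mean RPKM times coding length, and 2143 genes of all kinds lay in that range. There, with erythromycin, 7 of the 25 (28%) were lower against 29.3% of the 2143, and 4 (16%) were higher against 15.8%. Without it, 3 (12%) were lower against 11.3%, and 4 (16%) were higher against 9.15%. For the 25 genes in that range, the shares lower in the mutant were thus close to the background. Their median read total over the 4 libraries was 918, against 701 for the 2143. The rest of the 49, among them the MCM2-7 genes, TYMS, RRM2 and PCNA, lay outside the range. For them no background of like read number was set, so the check does not cover the whole set.

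The median log2 ratio of mutant over wild type over the 49 genes was −0.25 with erythromycin (interval over genes −0.46 to −0.06), with 34 below and 15 above 0. Without erythromycin it was −0.09 (−0.16 to 0.03), with 28 below and 21 above. All genes had a median of 0 by construction, and the 2143 genes of like read number had −0.12 with and −0.03 without the drug. Of these 2143 genes, 62.2% were below 0 with and 53.5% without the drug. Among the 25 genes of the set in that range the shares were 60% and 44%. The 25 genes of the set in that range had −0.06 (−0.31 to 0.02) with and 0.02 (−0.13 to 0.25) without the drug, so these 25 were not below that background. The rest of the 49 had no background of like read number, so the median of the whole set is not covered by this comparison. The summed reads of the 49 genes gave −0.28 [−0.32, −0.24] with and −0.07 [−0.11, −0.03] without erythromycin, and they made up 0.789% and 0.866% of reads in the mutant with and without it, against 0.916% and 0.924% in wild type. For comparison, 31 genes of G2 and mitosis had medians of −0.41 and −0.18, and 54 replication-dependent histone genes −0.17 and −0.26, with and without the drug.

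Over both treatments, limma with genotype and treatment as additive terms called 187 of 9612 genes for genotype at an adjusted p of 0.05. Of the 49 genes, 1 rose (1.66% of all genes) and 0 fell (0.281%), and at an unadjusted p of 0.05 there were 4 higher (6.89%) and 5 lower (5.52%). The gene that rose was CDT1, by 0.95 (SE 0.229, adjusted p = 0.0428). This fit sets 2 libraries against 2 with 1 residual degree of freedom, the difference between the drug responses serving as error. Its SE over the 49 genes was 0.176 to 0.346.

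**Figure D3:**
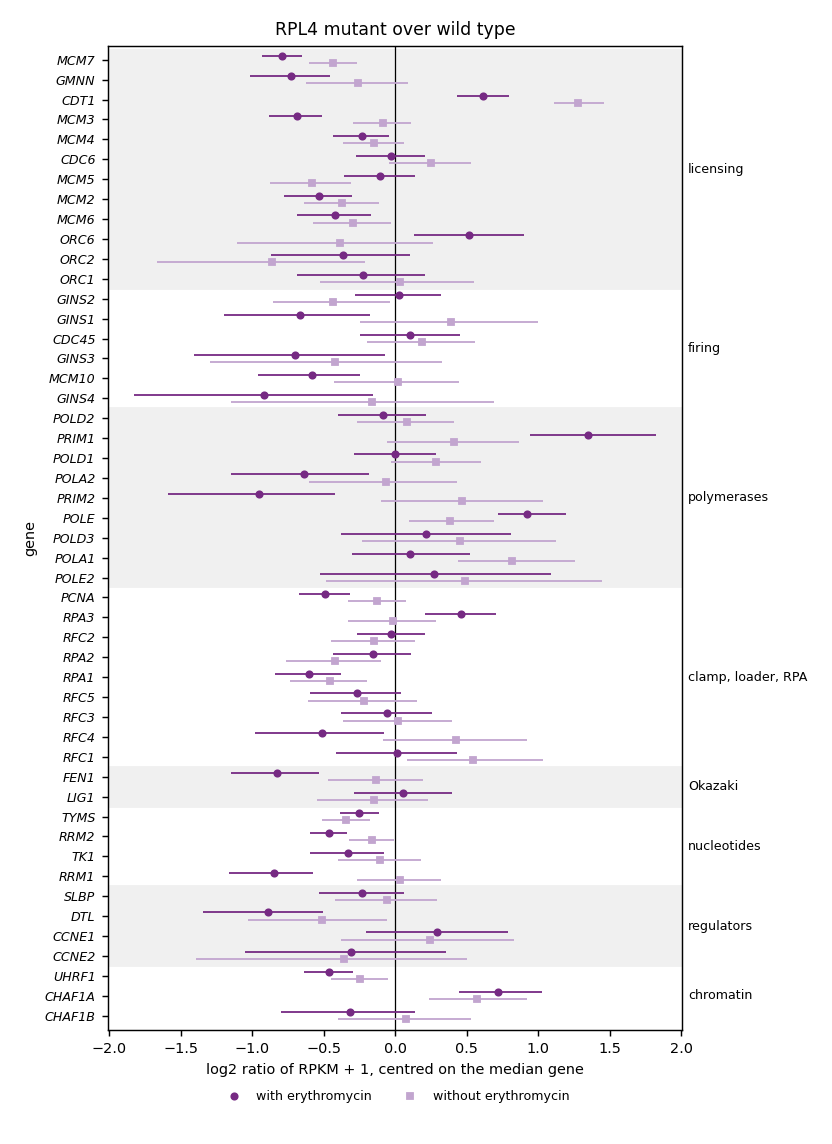
Log2 ratio of RPKM plus 1 of RPL4 mutant over wild type for the 49 genes, with and without erythromycin, centred on the median gene; lines are 95% exact counting intervals and the vertical line marks 0. CDT1, CHAF1A and POLE lie right of 0 with both intervals, the 8 genes named as lower in both treatments lie left of it, and PRIM1 with erythromycin lies furthest right of that treatment at 1.35.

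Among licensing factors, CDT1 was higher in both treatments and MCM2, MCM6 and MCM7 were lower in both, while the origin recognition genes had no common direction. CDT1 (chromosome 16, 88803213 to 88809258, GRCh38) had 248 RPKM in the mutant with erythromycin and 401 without it, against 155 and 167 RPKM in wild type, from 405, 398, 651 and 815 reads. Both mutant libraries were above both wild type libraries. The log2 ratio was 0.61 [0.43, 0.80] with and 1.28 [1.11, 1.46] without the drug, and CDT1 was the only one of the 49 genes at least 2-fold higher without it (5.29% of all genes), with 0 at least 2-fold lower (3.32%). The call on CDT1 did not hold in limma with libraries scaled to a common sum (adjusted p = 0.0566), without a variance trend (0.323), without a treatment term (0.185), with transcripts of known reads only (0.0583), or without the mutant library that lacks the drug (0.578, adjusted p = 0.164). It also did not hold without wild type cells with the drug (adjusted p = 0.168) or without it (0.121), and it held in the other settings run (adjusted p 0.00512 to 0.0264). CDT1 has the highest coding GC content of the set, 68.3% against a median of 50.1%, and the position of its reads along the transcript was not analysed here.

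GMNN, the inhibitor of CDT1, lay on the other side. It had 214 and 205 RPKM in the mutant with and without erythromycin, against 340.4 and 249 RPKM in wild type, so both mutant libraries were below both wild type ones. Its log2 ratio was −0.73 [−1.01, −0.46] with and −0.26 [−0.62, 0.09] without the drug. The ratio of CDT1 to GMNN footprints per coding length was therefore 1.16 (counting interval 0.952 to 1.42) and 1.96 (1.53 to 2.53) in the mutant with and without erythromycin, against 0.456 (0.406 to 0.512) and 0.671 (0.598 to 0.754) in wild type. This pair was set side by side after its values were seen.

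Of the 6 MCM2-7 subunits, 3 were lower in the mutant in both treatments (4.87% of all genes) and none was higher in either. All 6 lie above the range of like read number used here, so they have no background of their own read number. MCM7 had 249 and 256 RPKM in the mutant with and without erythromycin, against 413 and 352 in wild type (−0.79 [−0.93, −0.65] and −0.43 [−0.61, −0.27]). MCM2 had 68.6 and 85.9 RPKM in the mutant against 95.3 and 113 RPKM in wild type (−0.53 [−0.78, −0.30] and −0.37 [−0.64, −0.12]), and 16.5% of its coding bases lie opposite an antisense gene. Whether reads were counted by strand is not given in the sources used here. MCM6 had 65.3 and 86.5 RPKM in the mutant against 83.9 and 108 RPKM in wild type (−0.42 and −0.29). For MCM7 both mutant libraries were below both wild type ones. For MCM2 that held too, while for MCM6 the mutant without the drug was above wild type with it. MCM3 was lower with the drug alone (−0.69 [−0.88, −0.51]), as was MCM4 (−0.23 [−0.43, −0.04]), and MCM5 was lower without it alone (−0.58 [−0.88, −0.31]); whether the treatments differ was not tested.

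The origin recognition subunits were few in reads. ORC2 had 27.9 and 18.1 RPKM in the mutant with and without erythromycin, against 34.5 and 34.4 in wild type, from 48, 19, 153 and 177 reads (−0.36 [−0.87, 0.10] and −0.86 [−1.67, −0.21]). ORC6 was higher in the mutant with the drug (0.51 [0.13, 0.90]) and had an interval across 0 without it (−0.38 [−1.11, 0.26]). ORC1 and the loader CDC6 had intervals across 0 in both treatments. Counting error thus left the direction of 2 of the 12 licensing genes unsettled in both treatments.

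Among origin firing factors, 4 of 6 were lower in the mutant with erythromycin, a count of few genes beside 16.9% of all genes. These were GINS1 (−0.67), GINS3 (−0.70), GINS4 (−0.92) and MCM10 (−0.58), a factor that helps start the helicase. GINS1, GINS3 and GINS4 lie below the range of like read number, so its share of 29.3% is no background for them. GINS3 had 32.8 and 34.5 RPKM in the mutant with and without the drug, against 51.5 and 47.4 RPKM in wild type, from 25, 16, 101 and 108 reads. Both mutant libraries were below both wild type ones, with −0.70 [−1.41, −0.07] with and −0.42 [−1.29, 0.33] without erythromycin. GINS2 was lower without the drug (−0.43 [−0.85, −0.04]) but near 0 with it (0.02). CDC45, the helicase partner, had intervals across 0 in both treatments (0.10 and 0.19). Antisense genes lie opposite 24.3% of the coding bases of GINS3 and 17% of those of GINS4.

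Polymerase and primase genes were the group with the highest median in the mutant, 0.10 with erythromycin (−0.63 to 0.92) and 0.41 without it (0.08 to 0.49) over 9 genes. Their combined share of reads, with its 95% Wilson interval, was 0.0833% (0.0779% to 0.0892%) with and 0.0910% (0.0837% to 0.0989%) without the drug in the mutant, against 0.0669% (0.0638% to 0.0702%) and 0.0729% (0.0699% to 0.0761%) in wild type. POLE alone held 263 of the group's 828 reads with and 121 of 550 without the drug in the mutant. In wild type it held 334 of 1710 and 458 of 2163. The pooled share thus depends much on 1 gene, and the share without POLE was not computed. POLE (chromosome 12, 132623753 to 132687365) had 38.6 and 29.2 RPKM in the mutant, against 19.0 and 22.5 RPKM in wild type. Its ratio was 0.92 [0.72, 1.19] with and 0.39 [0.10, 0.69] without the drug, and both mutant libraries were above both wild type ones. In limma POLE was at 0.66 (SE 0.288, adjusted p = 0.355), which misses the threshold.

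PRIM1, the catalytic primase subunit, was the 1 gene of the set at least 2-fold higher in the mutant with erythromycin (7.02% of all genes), with 0 at least 2-fold lower (2.26%). It had 72.5 and 66.8 RPKM in the mutant with and without the drug, against 26.6 and 51.0 RPKM in wild type, from 91, 51, 86 and 191 reads. Both mutant libraries lay above both wild type ones, and the ratio was 1.35 [0.94, 1.82] with and 0.41 [−0.06, 0.87] without the drug (limma over both, 0.88, SE 0.286, adjusted p = 0.164). Of its coding bases, 28.7% are shared with another gene on the same strand (AC117378.1). PRIM2, the large primase subunit, was lower with the drug (−0.95 [−1.59, −0.42]), and POLA2, a subunit of polymerase alpha, likewise (−0.63 [−1.15, −0.18]). Another gene on the same strand (AP000944.2) shares 91.8% of the coding bases of POLA2. The ratio of PRIM1 to PRIM2 was thus 3.56 (2.34 to 5.53) and 1.77 (1.13 to 2.80) in the mutant with and without erythromycin, against 0.690 (0.523 to 0.905) and 1.85 (1.47 to 2.34) in wild type, a pair also chosen after its values were seen.

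The other polymerase genes were less clear. POLA1, the catalytic subunit of polymerase alpha, was higher without the drug (0.82 [0.44, 1.26]) and at 0.10 with it. POLE2 was above 0 in both treatments at 0.27 and 0.49, but on 21, 13, 42 and 45 reads in the mutant and wild type libraries its intervals of [−0.53, 1.09] and [−0.49, 1.44] crossed 0. The ratio of POLE to POLE2 was 2.89 (1.85 to 4.75) and 2.15 (1.21 to 4.15) in the mutant with and without the drug. In wild type it was 1.84 (1.33 to 2.59) and 2.35 (1.73 to 3.27), with overlapping intervals in both treatments. This pair, too, was chosen after its values were seen. POLD1, POLD2 and POLD3, the subunits of polymerase delta in the set, had intervals across 0 in both treatments. With the drug, 2 of the 9 genes were higher in the mutant beyond counting error (16.1% of all genes) and 2 were lower (16.9%). Without it, 2 were higher (9.5%) and 0 were lower (9.29%), POLE being the only one in both treatments. These are counts of few genes.

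In the clamp, clamp loader and single-strand binding group, RPA1 was lower in the mutant in both treatments. It had 109.8 and 117 RPKM in the mutant with and without erythromycin, against 160.2 and 164 RPKM in wild type (−0.60 [−0.84, −0.38] and −0.46 [−0.74, −0.19]). Both mutant libraries were below both wild type ones. RPA2 was lower without the drug (−0.42 [−0.76, −0.10]), and RPA3, the smallest RPA subunit, was higher with it (0.46 [0.21, 0.70]), with 583 and 488 RPKM in the mutant against 406 and 503 RPKM in wild type. The 3 subunits of RPA therefore did not shift together. PCNA, the sliding clamp, had 429 and 499 RPKM in the mutant against 577 and 554 RPKM in wild type, which put both mutant libraries below both wild type ones (−0.49 [−0.67, −0.31] with and −0.13 [−0.33, 0.07] without the drug). Of the clamp loader genes, RFC4 was lower with the drug (−0.51 [−0.98, −0.08]) and RFC1 higher without it (0.55 [0.09, 1.03]), while RFC2, RFC3 and RFC5 had intervals across 0 in both treatments.

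Genes of nucleotide supply had the highest median RPKM of the groups in every library, and all 4 were lower in the mutant with erythromycin (16.9% of all genes). TYMS and RRM2 lie above the range of like read number, so its share of 29.3% is no background for them. Their share was 0.152% (0.145% to 0.160%) and 0.160% (0.151% to 0.171%) of reads in the mutant with and without the drug, against 0.193% (0.188% to 0.198%) and 0.188% (0.183% to 0.193%) in wild type (Wilson intervals). TYMS was at −0.25 [−0.39, −0.12] with and −0.34 [−0.51, −0.18] without the drug. Its 4 values, given above, put both mutant libraries below both wild type ones. RRM2 had 467 and 483 RPKM in the mutant against 617 and 551 RPKM in wild type (−0.46 [−0.59, −0.33] and −0.16 [−0.32, −0.01]), again with no overlap. TK1, which salvages thymidine, had 204 and 243 RPKM in the mutant against 246 and 266 RPKM in wild type (−0.33 [−0.60, −0.08] and −0.10 [−0.40, 0.18]), and RRM1 was lower with the drug alone (−0.85 [−1.16, −0.57]). The same held for the flap nuclease FEN1 (−0.83 [−1.15, −0.53]), which trims Okazaki fragments, while DNA ligase LIG1 had intervals across 0 in both treatments. ENOSF1, on the opposite strand, covers 40.8% of the coding bases of TYMS, and TYMS, RRM2, PCNA and FEN1 are among 8 of the 49 genes with annotated pseudogene copies.

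Among regulators and chromatin factors, DTL was the lowest of the 49 genes by the weaker of its 2 genotype differences. DTL is the substrate receptor of the ubiquitin ligase that destroys CDT1 in S phase. It had 27.1 and 31.7 RPKM in the mutant with and without erythromycin, against 48.9 and 46.4 in wild type, so the groups did not overlap (−0.89 [−1.35, −0.50] and −0.51 [−1.03, −0.06]). In limma DTL was at −0.70 (SE 0.272, adjusted p = 0.283), which misses the threshold. CHAF1A, the large subunit of chromatin assembly factor 1, had 59.3 and 54.7 RPKM in the mutant against 34.1 and 37.1 RPKM in wild type, again without overlap (0.72 [0.45, 1.02] and 0.57 [0.24, 0.92]). Its partner CHAF1B had intervals across 0 in both treatments, and the ratio of CHAF1A to CHAF1B was 1.90 (1.39 to 2.65) and 1.16 (0.810 to 1.67) in the mutant against 0.914 (0.747 to 1.12) and 0.815 (0.685 to 0.970) in wild type. This pair was also chosen after its values were seen. UHRF1, which reads hemimethylated DNA behind the fork, was lower in both treatments (−0.46 [−0.64, −0.29] and −0.25 [−0.45, −0.05]). The S phase cyclin gene CCNE1 had 43.3 and 40.2 RPKM in the mutant against 33.6 and 34.5 RPKM in wild type, with intervals across 0 in both treatments (0.29 [−0.20, 0.79] and 0.24 [−0.38, 0.83]), and CCNE2 and the histone mRNA binding protein SLBP also had intervals across 0.

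The comparison of cells with and without erythromycin asks which of these genes differ in footprints with the drug. MCM2, MCM4 and MCM6 were lower with erythromycin beyond counting error in both genotypes, and ORC6 was higher in both. In the mutant, 2 of the 49 genes were higher with the drug (7.21% of all genes) and 11 were lower (7.69%). In wild type, 9 were higher (14.2%) and 10 were lower (13.9%). In both genotypes 1 was higher (1.64%) and 3 were lower (1.4%), and 3 had intervals off 0 in opposite directions (2.9%). In the range of like read number, 4 of 25 genes (16%) were lower in the mutant against 10.5% of 2143 genes, and 6 (24%) were lower in wild type against 16.9%, while 1 (4%) and 3 (12%) were higher against 7.51% and 19.3%.

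The median log2 ratio of erythromycin over none was −0.14 in the mutant (−0.27 to −0.09), with 36 genes below and 13 above 0, and 0.01 in wild type (−0.07 to 0.12), with 24 below and 25 above. The 2143 genes of like read number had −0.06 in the mutant, 57% below 0, and 0.005 in wild type, 49.2% below. The 25 genes of the set in that range had −0.13 (−0.31 to 0.002) in the mutant, 68% below, and −0.07 (−0.17 to 0.09) in wild type, 60% below. No such background was set for the rest of the 49. The median of the mutant response minus the wild type response was −0.20 (−0.28 to −0.07), with 35 below and 14 above 0, against 0.00 over all genes and −0.06 over the 2143 genes of like read number. The 25 genes of the set in that range had −0.15 with an interval of −0.37 to 0.14. Summed reads gave −0.19 [−0.24, −0.14] in the mutant and 0.00 [−0.02, 0.03] in wild type. These medians are a description of 4 libraries, and the difference between the genotypes was not tested.

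For erythromycin over both genotypes, limma called 24 of 9612 genes at an adjusted p of 0.05 and 594 at an unadjusted p of 0.05. Of the 49 genes, 0 rose (0.239% of all genes) and 0 fell (0.0104%), and at an unadjusted p of 0.05 there was 1 higher (3.78%) and 0 lower (2.4%). That 1 gene was ORC6, at 0.82 (limma SE 0.274, adjusted p = 0.513).

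**Figure D4:**
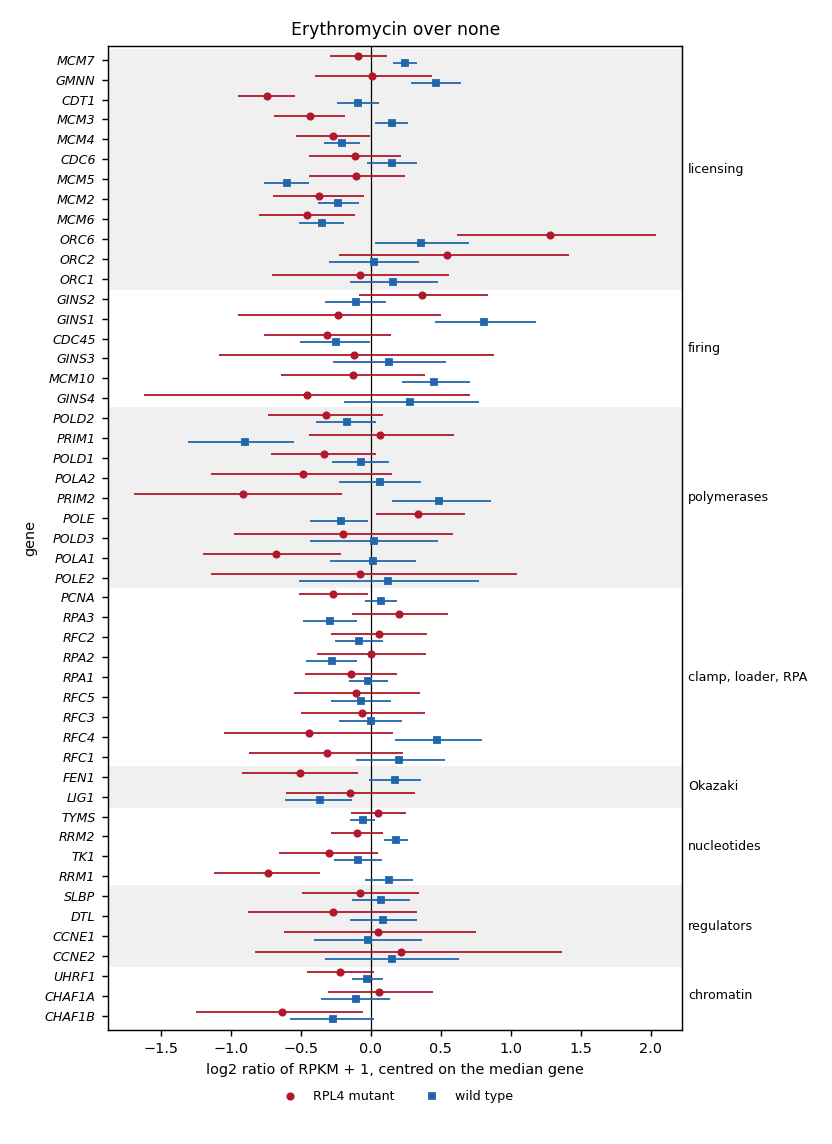
Log2 ratio of RPKM plus 1 with erythromycin over none for the 49 genes, in the RPL4 mutant and in wild type, centred on the median gene; lines are 95% exact counting intervals and the vertical line marks 0. ORC6 lies furthest right in the mutant at 1.28, and MCM3, PRIM2 and POLE have intervals on opposite sides of 0 in the 2 genotypes.

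ORC6 (chromosome 16, 46689643 to 46698394), the smallest origin recognition subunit, had 122 RPKM with the drug and 47.9 RPKM without it in the mutant, and 81.5 RPKM with and 64.0 RPKM without it in wild type. The ratio was 1.28 [0.61, 2.04] in the mutant, from 92 reads with and 22 without the drug, and 0.36 [0.03, 0.70] in wild type, from 158 and 144. It was the 1 gene at least 2-fold higher with the drug in the mutant (6.22% of all genes), where 0 were at least 2-fold lower (3.39%). In wild type 0 were at least 2-fold higher (1.73%) or lower (1.54%).

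The 3 MCM genes that were lower in both genotypes had modest ratios. MCM6 was at −0.45 [−0.80, −0.11] in the mutant and −0.35 [−0.51, −0.19] in wild type, and MCM2 at −0.37 [−0.70, −0.05] and −0.23 [−0.38, −0.09]. MCM4 had 115 RPKM with and 133 RPKM without the drug in the mutant, and 129 with and 151 without in wild type (−0.27 [−0.53, −0.01] and −0.20 [−0.33, −0.08]). Other MCM genes did otherwise: MCM5 was lower in wild type alone (−0.60 [−0.77, −0.44]), at 88.02 RPKM with and 135 RPKM without the drug, and MCM7 was higher there (0.24 [0.16, 0.33]).

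MCM3, PRIM2 and POLE had drug differences of opposite sign in the genotypes, each beyond counting error. MCM3 (chromosome 6, 52264009 to 52284881) had 117 RPKM with and 152 RPKM without the drug in the mutant (−0.44 [−0.69, −0.19]), and 181 with and 165 without in wild type (0.15 [0.03, 0.26]). PRIM2 (chromosome 6, 57314805 to 57646849) had 20.4 with and 37.8 without in the mutant (−0.91 [−1.69, −0.21]), and 38.6 with and 27.6 without in wild type (0.49 [0.15, 0.86]). POLE went the other way, with 0.34 [0.03, 0.67] in the mutant and −0.21 [−0.43, −0.02] in wild type. Thus MCM3 and PRIM2 were lower with the drug in the mutant and higher in wild type, and POLE was higher in the mutant and lower in wild type.

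Other genes differed beyond counting error in 1 genotype, which does not show that the genotypes differ. In the mutant with erythromycin, CDT1 (−0.74 [−0.95, −0.54]), RRM1 (−0.73 [−1.12, −0.37]), POLA1 (−0.68 [−1.20, −0.21]), FEN1 (−0.51 [−0.92, −0.09]), PCNA (−0.27 [−0.51, −0.02]) and CHAF1B were lower. CHAF1B had 31.2 RPKM with and 47.3 RPKM without the drug in the mutant (−0.64 [−1.25, −0.06]), and 37.3 with and 45.6 without in wild type (−0.27 [−0.58, 0.02]). In wild type with erythromycin, GINS1 (0.80 [0.46, 1.18]), RFC4 (0.47), GMNN (0.46), MCM10 (0.45) and RRM2 (0.18) were higher. PRIM1 (−0.90 [−1.31, −0.55]), LIG1 (−0.37), RPA3 (−0.29), RPA2 (−0.28) and CDC45 (−0.25) were lower there. CDC45 had 56.0 RPKM with and 67.2 RPKM without the drug in the mutant (−0.31 [−0.77, 0.14]), and 49.9 with and 60.1 without in wild type.

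Near the middle, POLD2 had 80.4 RPKM with and 97.2 RPKM without erythromycin in the mutant, and 81.9 with and 93.5 without in wild type, with intervals across 0 in both genotypes (−0.32 and −0.17). CCNE2 had 19.9 with and 16.3 without in the mutant and 23.8 with and 21.7 without in wild type, from as few as 12 reads. In all, 15 of the 49 genes were below 0 with the drug in both genotypes, 4 were above 0 in both and 30 had opposite signs. For genotype, 24 were below 0 in both treatments, 11 were above 0 in both and 14 had opposite signs. The shares of all genes with these patterns of sign were not computed. These counts for the drug and for genotype are therefore a description, with no background to read them against.

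A further 50 replication and S phase genes outside the set gave a wider view of the pathway. Of these, 49 were listed, 48 passed the filter and 47 had known reads. With erythromycin, 4 (8.51%) were higher and 11 (23.4%) lower in the mutant than in wild type beyond counting error, against 16.1% and 16.9% of all genes. Without it 5 (10.6%) were higher and 5 (10.6%) lower, against 9.5% and 9.29%. With the drug, 1 (2.13%) was higher and 3 (6.38%) were lower in the mutant, against 7.21% and 7.69% of all genes, and 10 (21.3%) were higher and 3 (6.38%) lower in wild type, against 14.2% and 13.9%. Their median mutant over wild type ratio was −0.15 with and 0.04 without erythromycin. For genotype, limma called 0 of 48 (187 of all 9612 genes), with 3 at an unadjusted p of 0.05 (1193 of 9612). Among those 3 was POLD4, with 2 or 3 reads in each library. For erythromycin, limma called 0 of 48 (24 of 9612), with 0 at an unadjusted p of 0.05 (594 of 9612).

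By the same rule as in the set, TOP1, the topoisomerase that relaxes DNA ahead of the fork, was the lowest of these for genotype. It had 43.8 and 56.1 RPKM in the mutant with and without erythromycin, against 81.9 and 77.5 RPKM in wild type (−0.95 [−1.29, −0.65] and −0.43 [−0.80, −0.09]). SUPT16H, a subunit of the histone chaperone FACT, was also lower in both treatments (−0.42 [−0.67, −0.19] and −0.52 [−0.84, −0.23]). CHTF18, of an alternative clamp loader, was higher in both (0.92 [0.43, 1.64] and 1.03 [0.41, 1.86]), from 45, 25, 54 and 56 reads. DBF4, ASF1A, TCF19 and ATAD2 had at least 1 interval across 0, and POLD4 had 2 or 3 reads in each library, which gives no usable ratio. For erythromycin, DUT, which removes dUTP, was at −0.35 [−0.79, 0.09] in the mutant and −0.27 [−0.49, −0.06] in wild type. DBF4, FBXO5 and TOPBP1 on the low side and CLSPN and TICRR on the high side had intervals across 0 in both genotypes, while MCM9 was at 0.12 in the mutant and 0.55 [0.05, 1.29] in wild type.

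The set has properties that its choice did not use. Coding lengths ran from 366 bases in RPA3 to 6861 in POLE, with a median of 1584 against 1311 over all kept genes, and coding GC content ran from 38.9% in CCNE2 to 68.3% in CDT1, with a median of 50.1% against 52.2%. Over 9544 genes, the mutant over wild type ratio had a Pearson correlation with coding GC of 0.21 with erythromycin and 0.07 without it, and over the 49 genes these were 0.08 and 0.01. With log2 coding length, it had a correlation over the 49 genes of 0.12 with and 0.24 without the drug. Correlations of the erythromycin ratio with GC over the 49 genes were −0.15 in the mutant and −0.32 in wild type. Genes within a library share its depth and preparation, so these are descriptions, and the part of length or GC in the results was not tested. The 20 genes with an E2F match had a median mutant over wild type ratio of −0.44 with and −0.14 without the drug, against −0.23 and −0.02 for the other 29, of which 7 had no promoter in the table.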

How the data were processed

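HEK293 ribosome footprint libraries (1 per group, 4 in all) were analysed from 1 deposited value per Ensembl transcript in RPKM, made by the authors. Per the submitters' processing notes, cutadapt, STAR and GRCh38 were used; the read counter was not given in the sources used here. Transcripts absent from a file were read as 0. Symbols and coding lengths came from GENCODE 29 (16172 of 16292 transcripts matched). RPKM times coding length gave whole reads within 0.001 reads for 99.15% to 99.20% of transcripts with a length, which fixed the library totals; 143 kept transcripts had unknown reads, none of them among the 49 genes. Values were analysed as log2(RPKM + 1) for transcripts with a mean of at least 5 RPKM, centred on their median. The offsets removed were 0.06 and −0.03 for mutant over wild type with and without erythromycin, and 0.05 and −0.02 for erythromycin over none in the mutant and wild type. The added 1 RPKM understates changes of low genes. Counting intervals were exact (Clopper-Pearson, 95%), for reads without the added 1 RPKM, so the ratio can lie off their middle. Intervals of medians were order statistics over genes. limma 3.58.1 (R 4.3.3) used a variance trend and Benjamini-Hochberg adjustment over 9612 genes. It was also run on simulated libraries with counting error only, which cannot show how it does with the spread of real libraries. The error in the limma fit is the spread between these 4 libraries, which may be technical. Shares of reads have Wilson intervals. Intervals cover counting error only. They treat every read as independent, although without molecular identifiers copies of 1 molecule could not be told apart, so they may be too narrow.

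The genes and gene lists were chosen with earlier results of these data known. Values in every library are given for genes called by limma, the 8 most abundant, the 6 highest and 6 lowest by the weaker difference of the same sign for genotype and for erythromycin, and genes with drug differences of opposite sign beyond counting error; other genes are named from the counts. Up to 4 other replication genes each way were named by the same rule, and 1 that it takes is not reported here. Background at like read number and pair ratios were added after the data were seen. Reference overlaps were read from GENCODE 29, and whether reads were counted by strand is not given in the sources used here.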

Additional observations from a re-analysis of the deposited data

Results flagged for a closer look

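In 3 genes the erythromycin difference had opposite signs in the mutant and in wild type with both counting intervals off 0, as described above, and 2.9% of all genes did so. The mutant response minus the wild type response was −1.40 (log2) for PRIM2, −0.58 for MCM3 and 0.55 for POLE. With 1 library per group the difference between the genotypes was not tested.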

How the results depend on the processing

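With 0.1 or 5 RPKM as pseudocount, a minimum mean of 1 or 20 RPKM, no filter, no centring, or scaling to a common sum without the 50 most-read transcripts, medians of the 49 genes and single ratios moved by less than their spread, and counts beyond counting error by less than 1.5 times. The median for erythromycin in wild type, 0.01, was near 0 and changed sign, at −0.0028 with no filter, −0.027 with a minimum mean of 20 RPKM, −0.0028 with no centring and −0.0019 with a common sum; the other medians kept their sign. Of 1360 single values, 32 had the other sign, for 15 ratios of at most 0.106 in size, 0 of them with a counting interval off 0. With 99% intervals, a setting added after the data were seen, 7 genes were lower in the mutant without erythromycin, and in the mutant 1 was higher and 5 were lower with the drug. limma's 187 genotype calls became 284 with 0.1 RPKM as pseudocount, 290 with a minimum mean of 1 RPKM, 341 with no filter, 91 with no variance trend, 54 with no treatment term and 110 to 298 with 1 library left out. Calls among the 49 became 0 with a common sum, no variance trend, known reads only or no treatment term, and ranged from 0 to 1 with 1 library left out. limma's 24 erythromycin calls became 68, 67, 99, 42, 13, 0, 15 and 0 with 0.1 RPKM as pseudocount, a minimum mean of 1 RPKM, no filter, a minimum mean of 20 RPKM, a common sum, no variance trend, known reads only and no genotype term, and 0 to 2 with 1 library left out. The cause was not tested. A fit that leaves out 1 library drops the other factor and assumes that the lone library varies like the rest. Ratios and medians have no such value with 1 library per group. Count models were not run, since the deposited unit is RPKM. No paired analysis was possible because each group has 1 library and the labels link no libraries across groups. Depth limits the low genes: CCNE2, with 12 reads in the mutant and 78 in wild type without erythromycin, had an interval of −1.39 to 0.50.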
